A study of Mus musculus with 8 samples.

Results

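Tshr, Nmur1 and Mtnr1a encode 3 hormone receptors whose mRNAs were higher in olfactory mucosa after conditional deletion of Lhx2 in mature olfactory sensory neurons (OSNs). They are 3 of the 19938 genes that had a transcript cluster of their own on the array, and each was represented by 1 such cluster. They were chosen from the difference between knockout and control mice itself, so their values in that comparison are a description and carry no test. Tshr had the largest increase of all 23410 clusters with a gene symbol, Nmur1 the next largest and Mtnr1a ranked 11.

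Tshr encodes the receptor for thyroid-stimulating hormone (TSH), a glycoprotein hormone of the pituitary that drives the thyroid gland. Nmur1 encodes the receptor for the peptides neuromedin U and neuromedin S, and Mtnr1a encodes the MT1 receptor for melatonin, the night hormone of the pineal gland. All are G protein-coupled receptors, but their main couplings differ. The TSH receptor raises cAMP through the stimulatory G protein, NMUR1 acts mainly through phospholipase C and calcium, and MT1 lowers cAMP through inhibitory G proteins. OSNs themselves detect odors through a stimulatory G protein alpha subunit (Gnal) and adenylyl cyclase (Adcy3) that raise cAMP and open a cyclic nucleotide-gated channel.

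The study asked what the transcription factor Lhx2 does once OSNs have matured. Olfactory mucosae were taken at postnatal day 26 from 4 OmpCre:Lhx2(fl/fl) mice, in which both floxed Lhx2 alleles could recombine, and from 4 littermate controls. Of the controls, 3 were OmpCre:Lhx2(fl/+) and 1 was Lhx2(fl/+) with no Cre (control replicate 1), all on a mixed 129 x C57BL/6J background. Each mouse gave 1 Affymetrix Mouse Gene 1.0 ST array, and the values are log2 expression values as deposited. Cre was driven from its insertion at the Omp gene, used by OSNs once mature, so other cells of the mucosa keep Lhx2 in both groups. The study describes recombination by this Cre as incomplete. In this whole tissue, fewer cells of a type and less RNA per cell cannot be told apart, and the cells that carry the receptor mRNAs are not identified by these values.

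The labels were checked on Lhx2 and on Omp, a marker of mature OSNs that is itself the site of the Cre insertion. Lhx2 fell by 0.25 ± 0.06 (SE, n = 4 per group, adjusted p = 0.0383 by limma), and its cluster combines all exons, including those that are not floxed. This call was lost when any 1 array other than knockout replicate 3 was left out (adjusted p of 0.0566 to 0.13), after array median centring (adjusted p = 0.117) and with all clusters of the table tested (0.0788), and after centring on mature OSN mRNAs the direction turned (0.32, adjusted p = 0.00139). Omp fell by 0.84 ± 0.15 (adjusted p = 0.00568), a call lost by the methods' t-test (0.0526) and after centring on mature OSN mRNAs (-0.27, adjusted p = 0.1). Control replicate 1, with no Cre at the Omp gene, had the highest Omp value (13.78, against 13.22 to 13.56 in the controls with Cre). Mean Omp was 13.35 in the controls with Cre and 12.62 in knockouts, which all carried Cre. Control replicate 1 also stood apart in pituitary hormone mRNAs, as described beside the TSH subunits.

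The log2 signal of Tshr in controls, in the order of replicates 1 to 4, was 6.03, 6.14, 6.08 and 5.88, and in knockouts it was 8.58, 8.76, 8.66 and 8.30. Every knockout array lay above every control array, and the lowest knockout exceeded the highest control by 2.16 on the log2 scale. Mean log2 values were 6.03 ± 0.11 (SD, n = 4) in controls and 8.58 ± 0.20 (SD, n = 4) in knockouts. The difference was 2.54 ± 0.10 (SE of the limma fit), or 5.82-fold. It was 15.7 times the pooled standard deviation within groups.

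Nmur1 showed the same arrangement. Its log2 signal in the same order was 7.20, 6.91, 7.11 and 7.32 for controls and 9.21, 9.37, 8.86 and 9.37 for knockouts. The groups were separated by 1.55, although knockout replicate 3 lay lower than the other knockouts. The means were 7.14 ± 0.17 and 9.20 ± 0.24 (SD, n = 4 each), a difference of 2.07 ± 0.13 (SE) or 4.19-fold. Nmur1 varied most between mice of one group among the 3 receptors, and its difference was 9.95 times the pooled standard deviation.

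Mtnr1a had the smallest difference of the receptors. Controls gave log2 values of 5.86, 5.70, 5.62 and 5.86, and knockouts gave 7.49, 7.37, 7.47 and 7.29. No knockout reached down to a control, with a gap of 1.43 between the groups. The means were 5.76 ± 0.12 and 7.41 ± 0.09 (SD, n = 4 each), so the difference was 1.65 ± 0.08 (SE), or 3.13-fold. Knockout arrays of Mtnr1a differed little among themselves, and the difference was 15.4 times the pooled standard deviation.

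**Figure D1:**
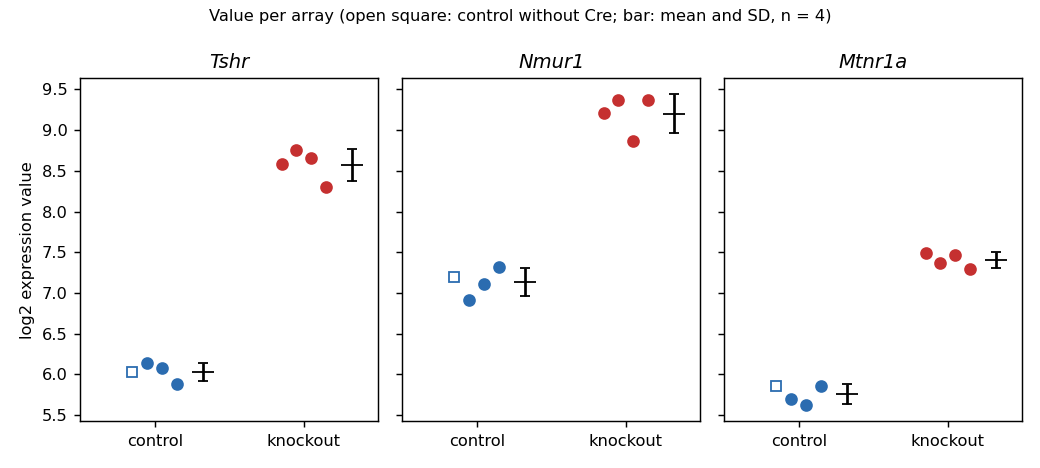
Log2 expression value of Tshr, Nmur1 and Mtnr1a in each of the 4 control and 4 knockout arrays (vertical axis), with the mean and SD of each group as a bar beside the points; the open square is the control without Cre. In each panel all knockout points lie above all control points, by 2.16 for Tshr, 1.55 for Nmur1 and 1.43 for Mtnr1a between the nearest arrays.

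On the linear scale, the mean signal went from 65.7 in controls to 384 in knockouts for Tshr. The corresponding means were 141 and 595 for Nmur1, and 54.3 and 170 for Mtnr1a. Signals of different clusters depend on their probes, so these levels do not rank the receptors against each other. As a guide to signal without expression, 14 clusters for genes of other tissues, such as liver albumin and sperm protamine, had 8-array mean log2 values from 4.26 to 8.60 with a median of 6.32. The control values of all 3 receptors lay inside that range. So did every Mtnr1a knockout value (7.29 to 7.49) and part of those of Tshr (8.30 to 8.76). Nmur1 knockouts (8.86 to 9.37) lay above it. Whether any of these values were above background was not tested. Where control signal is background, a log2 difference understates the change in mRNA.

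The control without Cre lay among the controls with Cre for all the receptors. It had a Tshr value of 6.03 against 5.88 to 6.14 in the 3 controls with Cre. For Nmur1 it had 7.20 against 6.91 to 7.32, and for Mtnr1a it had 5.86 against 5.62 to 5.86. With 1 such mouse no test of Cre itself was possible. The mouse numbers in the sample titles begin with 5, 7 or 9, and these title series were treated as a possible batch. Knockouts shared their litters with controls according to the study, but which mice were littermates of which is not known here. Series 5 held 2 knockouts and 2 controls, while series 7 and 9 held 1 of each. Within series 5, 7 and 9 the difference was 2.58, 2.58 and 2.42 for Tshr. It was 2.23, 1.75 and 2.05 for Nmur1, and 1.65, 1.85 and 1.43 for Mtnr1a. That knockouts were higher in every series follows from every knockout lying above every control, and only the sizes are informative. A fixed block for the title series cannot change the differences over all arrays, because each series held as many knockouts as controls. The SE with the block was 0.06 for Tshr, 0.10 for Nmur1 and 0.08 for Mtnr1a.

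The differences changed little with the handling of the arrays, except for one scaling. Leaving out each array in turn gave differences of 2.48 to 2.63 for Tshr, 1.99 to 2.18 for Nmur1 and 1.60 to 1.68 for Mtnr1a. Centring each array on 17 mature OSN mRNAs gave 3.11, 2.64 and 2.21, because that list was itself lower in the knockouts. This scaling moved the median difference of all clusters from 0.05 to 0.62, and relative to the median the receptors stood about as far out as before. The order of Tshr, Nmur1 and Mtnr1a was the same under all the settings plotted.

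**Figure D2:**
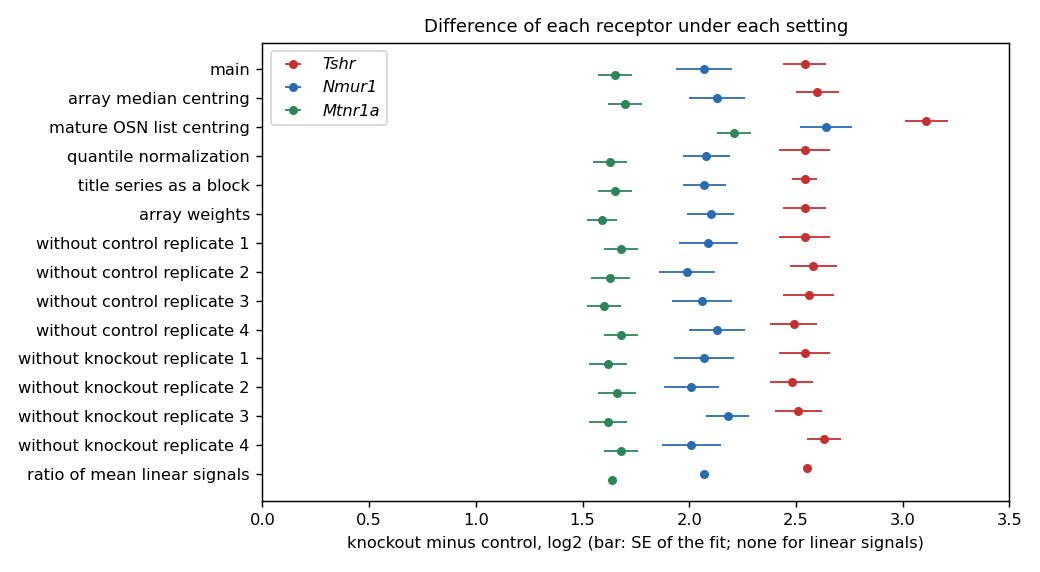
Difference between knockouts and controls on the log2 scale (horizontal axis; bars are the SE of the fit) for Tshr, Nmur1 and Mtnr1a under the main setting and 14 alternatives (vertical axis); the ratio of mean linear signals has no SE. Tshr lies between 2.48 and 2.63 without any one array and at 3.11 after centring on the mature OSN list, which moves all 3 receptors to the right.

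Over the 8 arrays, Pearson's r was 0.970 between Tshr and Nmur1, 0.988 between Tshr and Mtnr1a and 0.978 between Nmur1 and Mtnr1a. These values mostly restate the separation of the groups. After subtracting group means, the correlations were -0.48, 0.03 and -0.04, so within a group the values of the receptors showed no common rise and fall from mouse to mouse. Both sets of values are descriptions over 8 arrays that the receptors share.

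Among the 19938 genes, those most like each receptor over the 8 arrays were named by Pearson's r. For Tshr these were Zc2hc1a (r = 0.991), Mtnr1a (0.988), Zfp341 (0.986), Zwint (0.984) and Kcnb2 (0.984), a subunit of delayed rectifier potassium channels. For Nmur1 they were Hs6st3 (0.992), a heparan sulfate sulfotransferase, Gucy1a2 (0.991), a subunit of soluble guanylyl cyclase, Tmem63c (0.988), Zfp341 (0.988) and Nrxn3 (0.988), a synaptic adhesion protein. For Mtnr1a they were Tshr (0.988), Nefl (0.988), the light neurofilament, Krt90 (0.988), Manea (0.987) and Mtmr2 (0.986).

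The profiles alike in r differed widely in size. Leaving the 3 receptors aside, there were 12 such genes, and all had their 4 knockout arrays above their 4 control arrays, as the choice by correlation favours. Across the array, 6.42% of clusters had all 4 knockouts above all 4 controls. Among the 12, the difference was largest for Gucy1a2 (2.06), Nrxn3 (1.93), Hs6st3 (1.41) and Kcnb2 (1.21), and smallest for Mtmr2 (0.15). Within groups, r with Nmur1 was 0.86 for Hs6st3, 0.64 for Gucy1a2 and 0.42 to 0.60 for the others. With Mtnr1a it was 0.51 (Nefl) to 0.66 (Mtmr2), leaving Tshr aside. With Tshr it did not exceed 0.34 for any of the genes named with it. The choice by r over the same arrays also favours high values within groups, so these are descriptions only.

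The comparison with other receptors used a list of 89 hormone and peptide receptors without the 3 described here, of which 85 were measured. Only 1 of these rose and none fell at an adjusted p under 0.05 by limma, which is 1.18% called higher against 2.10% of all clusters. At an unadjusted p under 0.05, 11 of the 85 were higher and 0 lower, where 9.30% of all clusters were higher and 8.87% lower, and the methods' t-test after adjustment also called 1 higher and 0 lower. The median difference of the 85 was 0.09, beside 0.05 over all clusters. In 5 of the 85 (5.88%), every knockout lay above every control, near the share over all clusters.

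The receptor that rose was Oprl1, which encodes the opioid-related receptor for nociceptin. Its log2 values were 6.28, 6.12, 6.39 and 6.76 in controls and 8.04, 7.41, 7.54 and 7.70 in knockouts. The groups did not overlap, and the difference was 1.28 ± 0.16 (SE, n = 4 per group, adjusted p = 0.000424 by limma). It was called in every fit that left out 1 array, with differences of 1.16 to 1.41, but its mean level kept it out of a fit restricted to clusters above the median level. After Oprl1 came Hcrtr2, a receptor for orexins (0.57 ± 0.17, adjusted p = 0.0895), which did not pass the test. With array weights it did (0.68, adjusted p = 0.0312). All others lay between -0.15 and 0.42.

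**Figure D3:**
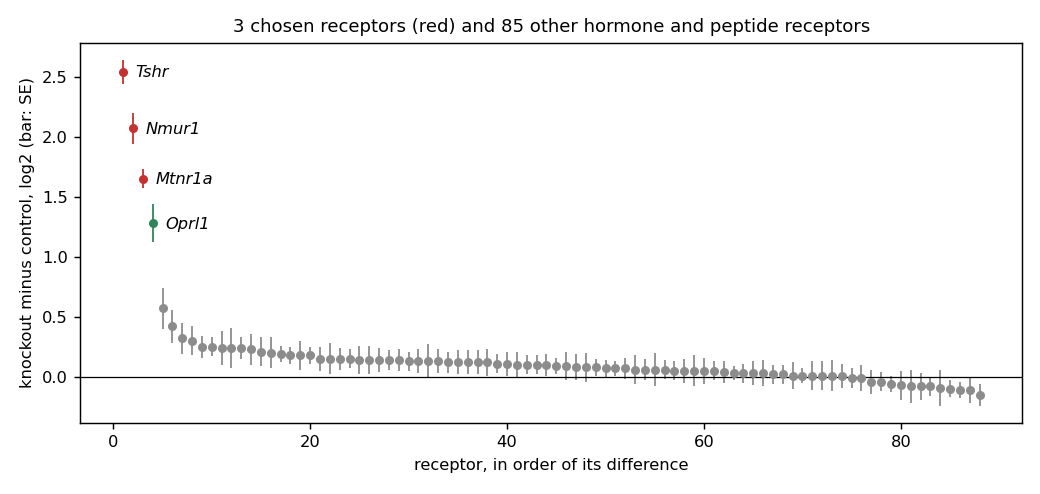
Difference between 4 knockouts and 4 controls on the log2 scale (vertical axis; bars are SE) for Tshr, Nmur1 and Mtnr1a (red), Oprl1 (green, the one called by the test) and the other measured hormone and peptide receptors (grey), in order of the difference (horizontal axis). The 3 chosen receptors lie at 2.54, 2.07 and 1.65, Oprl1 lies at 1.28, and all others lie at 0.57 or below.

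The hormones for these receptors and their closest relatives were read from lists of the 3 pathways. The lists held 34 genes, 31 of them measured. Of these, 1 passed the test upward (3.23%, against 2.10% of all clusters) and 0 downward by limma, the median difference was 0.11, and 1 of 31 had all knockouts above all controls (3.23%, against 6.42% of all clusters). At an unadjusted p under 0.05, 5 were higher and 0 lower, beside 9.30% and 8.87% of all clusters, and the methods' t-test called 0 in either direction after adjustment.

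TSH is made of a beta subunit encoded by Tshb and the alpha subunit Cga, which is shared with other glycoprotein hormones. Tshb lay between 5.15 and 5.41 on all arrays, with a difference of -0.04 ± 0.08 (adjusted p = 0.86). Cga was 10.42 in control replicate 1 and 6.97 to 7.65 in the other controls, against 6.55 to 7.13 in knockouts. Its difference of -1.27 ± 0.62 did not pass the test (adjusted p = 0.324) and was -0.52 without control replicate 1.

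That control also stood apart in other pituitary hormone mRNAs. Growth hormone (Gh) was 12.66 there against 9.49 to 10.01 in the other controls, prolactin (Prl) was 10.87 against 7.04 to 8.10, and Pomc was 9.14 against 7.35 to 8.25. The mean over 7 pituitary genes was 9.27 in control replicate 1, 7.47 to 7.56 in the other controls and 6.94 to 7.52 in knockouts. The receptor values of that mouse lay within the other controls for Nmur1 and Tshr and equalled the highest of them for Mtnr1a. Without it the receptor differences were 2.54 for Tshr, 2.09 for Nmur1 and 1.68 for Mtnr1a.

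Thyrostimulin, a second glycoprotein ligand of the TSH receptor, is made of Gpha2 and Gphb5. Gpha2 had a difference of 0.21 ± 0.07 (adjusted p = 0.13) and Gphb5 one of 0.12 ± 0.07 (adjusted p = 0.372). Gpha2 passed the threshold under quantile normalization (adjusted p = 0.0497), with array weights (0.0465) and without control replicate 4 (0.0323). Fshr, the follicle-stimulating hormone receptor and a close relative of Tshr, had a difference of 0.12 ± 0.10 (adjusted p = 0.604), with values of 6.14 to 6.51 in controls and 6.25 to 6.57 in knockouts.

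The gene of the 3 pathways that rose was Thra, a nuclear receptor for thyroid hormone. Its log2 values were 11.01, 11.05, 10.65 and 10.81 in controls and 11.65, 11.45, 11.03 and 11.41 in knockouts, so the groups overlapped. The difference was 0.50 ± 0.13 (SE, n = 4 per group, adjusted p = 0.0466 by limma). The call was lost without any 1 array other than knockout replicate 3 (adjusted p of 0.051 to 0.119), and it was 0.00686 without that one.

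Neither peptide ligand of NMUR1 passed the test. Log2 values over all arrays were 5.37 to 5.84 for Nmu and 6.12 to 6.50 for Nms. Nmu had a difference of -0.07 ± 0.10 (adjusted p = 0.785) and Nms one of -0.01 ± 0.09 (adjusted p = 0.965). Nmur2, the second neuromedin receptor, lay between 5.74 and 5.99 in controls and between 5.85 and 6.10 in knockouts, a difference of 0.14 ± 0.08 (adjusted p = 0.421). None of the 8 genes on the neuromedin list was called by limma, and the median difference was 0.12. At an unadjusted p under 0.05, 1 of the 8 was higher (Ntsr2, a neurotensin receptor, 0.25 ± 0.09), beside 9.30% of all clusters. Ntsr2 passed the adjusted threshold with array weights (0.28, adjusted p = 0.039). Gpr39, also on the list, passed it without control replicate 4 (0.33, adjusted p = 0.0158).

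Mtnr1b encodes the second melatonin receptor, MT2. It lay between 5.78 and 6.11 in controls and between 5.85 and 5.95 in knockouts, a difference of 0.03 ± 0.08 (adjusted p = 0.904). Gpr50, a relative that pairs with MT1 but does not bind melatonin, was 5.19, 5.49, 5.13 and 5.58 in controls and 5.59, 5.79, 5.60 and 6.09 in knockouts. All its knockouts lay above all its controls, by as little as 0.01, and its difference of 0.42 ± 0.14 did not pass the test (adjusted p = 0.107), although it did once title series entered the fit as a block (adjusted p = 0.0141) or with array weights (0.0212). Aanat, an enzyme of melatonin synthesis, had a difference of 0.16 ± 0.13 (adjusted p = 0.582). No gene of the 7 measured on the melatonin list was called by limma, and the median difference was 0.05. At an unadjusted p under 0.05, 2 of the 7 were higher, beside 9.30% of all clusters.

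The intracellular partners were described with a list of 45 G protein alpha subunits, effectors and regulators, 40 of them measured. None rose and 3 fell by limma, beside 6.29% of all clusters that fell, and the median difference was 0.05. At an unadjusted p under 0.05, 3 were higher and 3 lower, beside 9.30% and 8.87% of all clusters, and the methods' t-test after adjustment called 0 higher and 2 lower. Adcy3 fell by 0.98 ± 0.12 (adjusted p = 0.000385), from 12.40 to 12.75 in controls to 11.40 to 11.86 in knockouts. Gnal fell by 0.21 ± 0.06 (adjusted p = 0.0473) and Grk4, a G protein-coupled receptor kinase, by 0.34 ± 0.09 (adjusted p = 0.0486). Adcy3 and Gnal are also on the mature OSN list. Adcy3 was called in every fit that left out 1 array, but Gnal was called in none of them (adjusted p of 0.0716 to 0.15). Grk4 was called only without control replicate 4 (adjusted p = 0.0241, otherwise 0.0675 to 0.129). Array median centring (0.138 and 0.0807) and testing all clusters (0.0868 and 0.109) also lost Gnal and Grk4. Grk4 was further lost by the methods' t-test (0.119), quantile normalization (0.0536) and the title series block (0.0528). It lay at 5.20 to 5.90, below the median of 6.32 for the genes of other tissues.

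Genes that respond to cAMP and genes of the circadian clock, on which melatonin and TSH act in other tissues, were read in the same way. The shares over all clusters, for these and for the marker lists below, are 2.10% called higher, 6.29% called lower, and 9.30% higher and 8.87% lower at an unadjusted p under 0.05. Of 18 cAMP-responsive genes, 0 were called by limma, 0 were higher and 4 lower at an unadjusted p under 0.05, and the median difference was -0.09. The 2 named, as the members with the highest mean, were Ppargc1a (0.10 ± 0.07) and Dusp1 (-0.29 ± 0.11, adjusted p = 0.18). Of 18 measured clock genes, 0 rose and 1 fell, with 1 higher and 1 lower at an unadjusted p under 0.05 and a median of -0.02. The called share, 1 of 18, was close to the share of all clusters called lower. The gene was Nfil3, a transcriptional repressor, which fell by 0.33 ± 0.07 (adjusted p = 0.0209). It lost the call without control replicate 1 or 2 or knockout replicate 2 or 4 (adjusted p of 0.0504 to 0.0753).

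Cells outside the OSN lineage also express these receptors, among them thyroid follicular cells and adipocytes for Tshr, and group 2 innate lymphoid cells and sensory ganglion neurons for Nmur1. Markers of those cells were therefore read beside the receptors. Of 8 measured thyroid follicular markers, 0 were called by limma and 0 passed an unadjusted p under 0.05, and their mean log2 value per array was 6.83 to 7.06 in controls and 6.92 to 7.07 in knockouts. Of 7 adipocyte markers, 0 were called or passed unadjusted, with means of 6.82 to 7.02 and 6.90 to 6.99. Both ranges overlapped between the groups, and the part of these cells in the Tshr difference was not tested.

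For Nmur1, 12 markers of type 2 innate lymphoid cells and T cells had means of 6.63 to 6.79 in controls and 6.75 to 6.89 in knockouts. Of these, 1 of 12 rose, beside 2.10% of all clusters, namely Cd3g, a T cell receptor subunit (0.29 ± 0.07, adjusted p = 0.0244), and it lost the call without any of 5 arrays (control replicates 1 to 3, knockout replicates 3 and 4, adjusted p of 0.0567 to 0.0667). At an unadjusted p under 0.05, 3 of the 12 were higher. The 6 sensory ganglion markers had means of 6.94 to 7.11 and 6.99 to 7.19, with 0 called and 0 past an unadjusted p under 0.05, including peripherin (Prph, 0.10 ± 0.09) and Isl1 (0.04 ± 0.08). The part of these cells in the Nmur1 difference was not tested.

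Markers within the olfactory epithelium were read as well. Of 17 mature OSN markers, 15 fell and 0 rose by limma (0 higher at an unadjusted p under 0.05), beside 6.29% and 2.10% of all clusters, and their mean was 12.48 to 12.49 in controls and 11.88 to 11.94 in knockouts. The channel subunits Cnga4 and Cnga2 fell by 2.02 ± 0.12 (adjusted p = 3.12e-06) and 0.49 ± 0.05 (adjusted p = 0.000172). The receptors were therefore higher in arrays in which mature OSN mRNAs were lower.

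The list of guanylyl cyclase D neurons, a small class of OSNs that signal through cGMP, had a higher mean in knockouts mainly through 1 gene. Its median difference was 0.08, beside 0.05 over all clusters. Its mean over 6 genes was 7.85 to 7.97 in controls and 8.12 to 8.26 in knockouts, without overlap. Of the 6, 1 was called higher and 0 lower by limma, and 1 was higher and 0 lower at an unadjusted p under 0.05. That gene was Pde2a, a phosphodiesterase, which rose by 1.60 ± 0.11 (adjusted p = 6.36e-06), from 8.67 to 8.97 in controls to 10.17 to 10.59 in knockouts. The other members lay between -0.11 and 0.22, with Gucy2d, the cyclase that defines these neurons, at -0.11 ± 0.08 (adjusted p = 0.566).

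Of 12 immature OSN markers, 1 rose and 1 fell by limma. In 3 of them (25.0%) all knockouts lay above all controls, beside 6.42% of all clusters. In 1, the deleted gene Lhx2, all knockouts lay below, and the share of all clusters doing so was not computed. The list mean was 11.36 to 11.38 in controls and 11.37 to 11.51 in knockouts, and the median difference was 0.06. At an unadjusted p under 0.05, 3 were higher and 2 lower. Tubb3, a neuronal tubulin, rose by 0.41 ± 0.06 (adjusted p = 0.00076), and the one that fell was Lhx2 itself. The part of immature OSNs and of guanylyl cyclase D neurons in the receptor differences was not tested. None of the members of 8 further lists (sustentacular, basal, microvillous, vomeronasal, ensheathing, eosinophil and mast, macrophage, and smooth muscle and vessel cells) was called by limma, with 0 to 2 members of each higher and 0 lower at an unadjusted p under 0.05 and medians of 0.06 to 0.13.

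**Figure D4:**
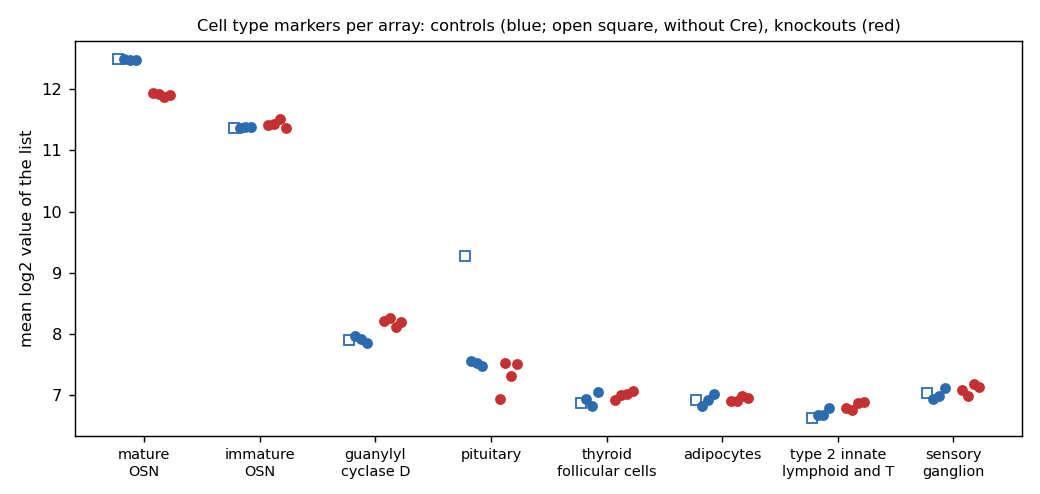
Mean log2 value of 8 cell type marker lists (horizontal axis) in each array (vertical axis), with 4 controls in blue (open square, the control without Cre) and 4 knockouts in red. The mature OSN list falls from 12.48 to 12.49 in controls to 11.88 to 11.94 in knockouts. The guanylyl cyclase D list lies higher in knockouts (8.12 to 8.26) than in controls (7.85 to 7.97), mainly through Pde2a. For the pituitary list 1 control stands out at 9.27, and the values of the other lists lie close together between the groups.

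The neighbours of each receptor gene were read in the order of a RefSeq gene table, taking the nearest 3 measured genes on each side. On chromosome 12, the nearest genes of Tshr, Cep128 (-0.07) and Gtf2a1 (0.17 ± 0.05, adjusted p = 0.108), did not pass the test. The third gene on one side did: Nrxn3, beyond Dio2 and Cep128, was 7.27, 7.23, 7.35 and 7.28 in controls and 9.20, 9.12, 9.14 and 9.40 in knockouts, a rise of 1.93 ± 0.07 (adjusted p = 7.25e-07). It is also among the genes most like Nmur1. Dio2, which encodes the deiodinase that activates thyroid hormone, had a difference of -0.08 between Nrxn3 and Tshr.

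On chromosome 1, Tex44 next to Nmur1 rose by 0.42 ± 0.11 (adjusted p = 0.0382), with 7.17, 7.10, 7.27 and 7.46 in controls and 7.52, 7.70, 7.55 and 7.92 in knockouts. That call was lost without control replicate 1, 2 or 3 or knockout replicate 2 or 4 (adjusted p of 0.0735 to 0.116). The other 5 neighbours of Nmur1 lay between -0.09 and 0.13. On chromosome 8, the 6 neighbours of Mtnr1a lay between -0.14 (Fam149a) and 0.20 (Adam34), and none passed the test. Receptor differences of 2.54, 2.07 and 1.65 thus stood beside immediate neighbours of 0.42 or less.

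**Figure D5:**
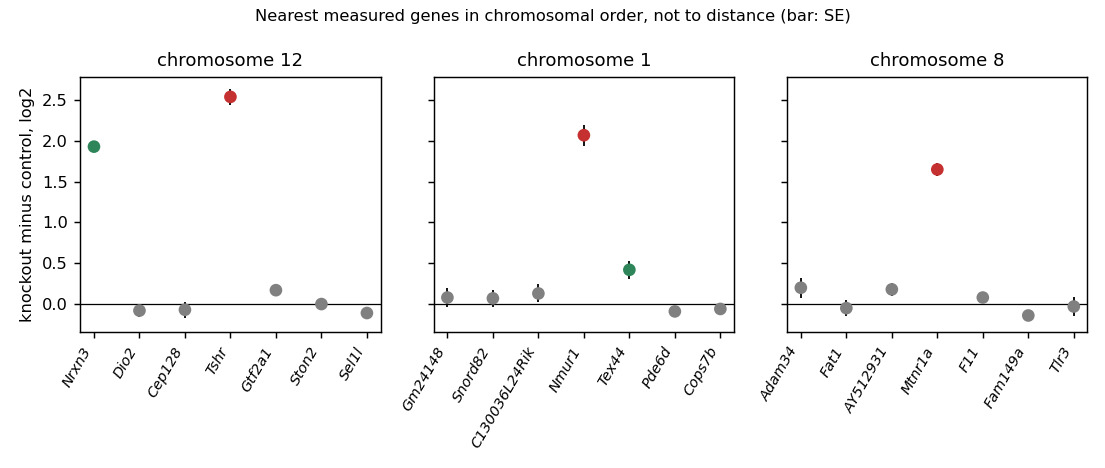
Difference between 4 knockouts and 4 controls on the log2 scale (vertical axis; bars are SE) for each receptor gene (red) and the nearest 3 measured genes on each side (green where called higher, grey otherwise), in chromosomal order and not to distance (horizontal axis). Tshr, Nmur1 and Mtnr1a stand above their immediate neighbours, and Nrxn3, the third gene from Tshr, lies at 1.93.

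The promoters are shown because the receptor mRNAs were higher together and Lhx2 is a homeodomain factor, a class that often binds sites with a TAAT core. RefSeq promoter sequences of the mouse assembly GRCm38.p6, from 250 bases before to 50 after a transcription start, were given for 2 of the 3 receptors, with 2 starts for Nmur1. Capitals mark every TAAT, or ATTA where it lies on the other strand:
Nmur1 (chr1:86389312-86389611, minus strand): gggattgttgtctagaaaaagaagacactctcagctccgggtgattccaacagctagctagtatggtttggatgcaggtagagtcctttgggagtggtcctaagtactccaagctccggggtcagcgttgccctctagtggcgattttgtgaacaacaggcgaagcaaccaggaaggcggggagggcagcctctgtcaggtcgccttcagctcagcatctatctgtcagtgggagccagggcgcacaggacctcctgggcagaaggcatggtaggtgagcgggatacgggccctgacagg
Nmur1 (chr1:86388092-86388391, minus strand): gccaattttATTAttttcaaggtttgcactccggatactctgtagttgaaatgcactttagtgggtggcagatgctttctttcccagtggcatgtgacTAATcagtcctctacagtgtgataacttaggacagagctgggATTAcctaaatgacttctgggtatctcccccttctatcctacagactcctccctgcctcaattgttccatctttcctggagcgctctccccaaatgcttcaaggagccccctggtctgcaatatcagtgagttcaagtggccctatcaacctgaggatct
Mtnr1a (chr8:45068857-45069156, plus strand): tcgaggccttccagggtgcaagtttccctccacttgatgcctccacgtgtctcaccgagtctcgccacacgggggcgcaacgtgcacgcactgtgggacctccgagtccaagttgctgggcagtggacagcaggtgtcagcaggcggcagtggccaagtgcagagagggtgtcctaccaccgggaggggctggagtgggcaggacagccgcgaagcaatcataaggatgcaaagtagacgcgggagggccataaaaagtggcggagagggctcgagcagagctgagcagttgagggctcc

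The first Nmur1 promoter (57.0% GC) and the Mtnr1a promoter (62.7% GC) held no TAAT on either strand, and the second Nmur1 promoter (47.0% GC) held 3. The median GC content of 32851 promoters was 52.7%. The longer homeodomain core TAATTA and the palindrome CCCNNGGG, resembling sites of the EBF factors of OSNs, were searched too and had no match in any of the sequences shown. Over all promoters of the same length, 58.0% held TAAT, 5.29% held TAATTA and 13.7% held CCCNNGGG, with TAAT matches including those inside TAATTA. The search for TAAT alone was added after the longer motifs had given no match.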

How the data were processed

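Each of 8 mice, 4 OmpCre:Lhx2(fl/fl) and 4 littermate controls, gave 1 array of olfactory mucosa. The deposited values are log2 expression values, which the authors made with Affymetrix Expression Console (version and summarisation settings not given in the sources used here) by combining all exons of a gene into 1 transcript cluster, from equal amounts of total RNA. They lay between 2.35 and 14.6 and entered the fits unchanged. The study rescaled its own values to a list of mRNAs of mature OSNs that is not used here. It reports a small average fall of that longer list in these mice. Centring here used the mean of 17 mRNAs, which was 12.48 to 12.49 in controls and 11.88 to 11.94 in knockouts. Their median difference was -0.49. This alternative is thus a stronger scaling than the study's own. Arrays give no counts, so their number limits the precision.

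Clusters were named from the platform annotation, updated with a RefSeq gene table of GRCm38.p6. No source used here gives the array's own assembly, so only gene order was used. For genes with more than 1 cluster, the brightest on average was taken. The groups were compared with limma 3.58.1 (lmFit, eBayes; R 4.3.3) over 23410 clusters with a gene symbol, with Benjamini-Hochberg adjustment. A cluster was called at an adjusted p under 0.05, and ± after a difference is the SE of this fit. The script was tested on simulated data. Groups came from the phenotype of each mouse.

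The receptors and all gene lists were chosen with earlier results of these data known. Named were the receptors, Lhx2 and Omp, the ligands and nearest relatives, up to 4 called members of each gene list and up to 2 of each marker list (the 2 with the highest mean where none was called), the 5 genes most like each receptor and its 3 nearest measured genes per side. Hcrtr2, Ntsr2, Gucy2d, the pituitary genes Prl, Pomc and Fshb, and genes named with an alternative were picked after their values were seen. Lhcgr and Asmt were not analysed here. Alternatives were other centring and normalization, a block for title series, array weights, the methods' t-test, other cluster filters, linear signals and leaving out each array. A planned comparison of receptor proteins was not run. Figures were drawn with matplotlib 3.10.9.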

Additional observations from a re-analysis of the deposited data

Results flagged for a closer look

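In 13 of 144 sets of 4 arrays of 1 gene in 1 group (9.03%), 1 array stood apart from the others by Dixon's test at the 95% level, where chance gives about 5%. No group of Tshr, Nmur1 or Mtnr1a was among them.

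Of genes described with the receptors, Gpha2 was 8.12 in knockout replicate 1 against 8.18 to 8.19 in the other knockouts, and Nfil3 was 7.87 in knockout replicate 4 against 8.01 to 8.02. Among genes most like the receptors, Zfp341 was 8.40 in control replicate 1 against 8.43, Gucy1a2 was 7.13 in control replicate 1 against 7.26, and Tmem63c was 8.14 in knockout replicate 3 against 8.34 to 8.38. Of the neighbours of Mtnr1a, Tlr3 was 7.75 in knockout replicate 3 against 8.22 to 8.26.

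Of the markers, Gh was 12.66 and Fshb 7.67 in control replicate 1, against 9.49 to 10.01 and 6.55 to 6.64 in the other controls. Cnga2 was 13.13 in control replicate 2 against 13.11 to 13.12, and 12.56 in knockout replicate 3 against 12.65 to 12.66. Slc5a5 was 7.97 in knockout replicate 2 against 7.73 to 7.75, Lpl was 8.30 in knockout replicate 3 against 8.66 to 8.72, and Plin1 was 7.27 in control replicate 4 against 6.81 to 6.84.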

How the results depend on the processing

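Tshr, Nmur1 and Mtnr1a kept their direction under every alternative. Leaving out an array could not turn it, since every knockout lay above every control. Their differences moved by more than the spread between replicates only after centring on the mature OSN list (3.11, 2.64 and 2.21). Without 1 array they ranged from 2.48 to 2.63, 1.99 to 2.18 and 1.60 to 1.68. By replicate number, no paired analysis was possible because the numbers follow sample order and pair nothing. A block for the title series was fitted instead. With as many knockouts as controls in each series, it could change only the SE. The receptor differences thus stayed at 2.54, 2.07 and 1.65.

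Clusters called higher (492) numbered 1028 after array median centring, 21781 after centring on the mature OSN list, 975 with the title series as a block, 1086 with array weights and 304 to 563 without 1 array (304 without control replicate 1, 318 without knockout replicate 4). Clusters called lower (1473) numbered 802 after centring on the mature OSN list, 760 among clusters above the median level and 1302 to 1421 without 1 array. Hormone and peptide receptors called higher (1) numbered 2 after median centring, 85 after centring on the mature OSN list, 2 with the block, 5 with array weights, 0 above the median level and 1 without any 1 array. Genes of the 3 pathways called higher (1) numbered 30 after centring on the mature OSN list, 2 under quantile normalization, 2 with the block, 4 with array weights, 0 by the methods' t-test, 0 with all clusters of the table tested and 0 to 2 without 1 array. Signalling genes called higher (0) numbered 2 after median centring, 39 after centring on the mature OSN list, 2 under quantile normalization, 1 with the block and 0 to 1 without 1 array. Those called lower (3) numbered 1 after median centring, 1 after centring on the mature OSN list, 1 with all clusters tested and 1 to 2 without 1 array.

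Centring on the mature OSN list shifts the median of all clusters by its construction, to 0.62, and turned the direction of Cnga2 (0.08), Gnal (0.36), Grk4 (0.23), Lhx2 (0.32), Nfil3 (0.24), Nms (0.56), Nmu (0.50) and Tshb (0.53). Cnga2 and Gnal are members of that list themselves. Array median centring turned Nms (0.05) and Tshb (0.02), array weights turned Nms (0.03) and quantile normalization turned Mtnr1b (-0.03). Without 1 array, Mtnr1b ranged from -0.01 to 0.10, Nms from -0.08 to 0.04 and Tshb from -0.09 to 0.01. None of these last 3 passed the test as deposited. Causes other than the construction of a setting were not tested.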
